A study of Mus musculus with 30 samples.

Results

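Hearts labelled as having both an AAV9 vector for Cpt1a and a pressure overload were compared with hearts labelled as having neither. The comparison took 7 of the 30 libraries of the series, chosen by their labels alone: 4 from mice labelled AAV9.Cpt1a with transverse aortic constriction (TAC, in which a clip on the aortic arch makes the left ventricle pump against a raised pressure) and 3 from mice labelled PBS with sham surgery. All were C57Bl/6 mice, and the hearts were taken 8 weeks after surgery. The vector places Cpt1a behind a cardiac troponin T promoter, which is active in cardiomyocytes. 2 further groups of the same cohort entered the fit and are given beside the results: PBS with TAC (3 libraries) and AAV9.Cpt1a with sham surgery (4 libraries). The clips were 0.016 or 0.018 inch wide, and the labels do not tie a width to a mouse. Age and sex are not given in the sources used here, and no empty vector was among the groups. Because vector and overload differ together, their shares of any difference from healthy heart cannot be told apart in this comparison. AAV9.Cpt1a against PBS under TAC differs by label in the vector, but clip width and assignment of the mice are not known for its libraries either. Each sample is a separate library, and the labels do not say how the mice were assigned, so p-values measure the spread between libraries. That spread was estimated over all 14 libraries of the fit. The PBS sham libraries differed from each other more than those within any other group, so the shared spread may be too small for them.

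Cpt1a encodes carnitine palmitoyltransferase 1A, which puts long-chain fatty acids onto carnitine at the outer mitochondrial membrane and so commits them to oxidation. The adult heart burns mostly fatty acids and relies mainly on the muscle form, Cpt1b, while the A form is the form of liver and of the fetal heart. Under pressure overload the ventricle thickens, returns to fetal contractile and natriuretic genes, lays down matrix, and shifts its fuel use.

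Total counts ran from 16842852 to 19480540 in the PBS sham libraries and from 16299695 to 22070373 in the vector-labelled TAC libraries. Levels are given as CPM (the count divided by the TMM-scaled library size, per M counts). 2 of the 3 PBS sham libraries stood apart from the rest. The summed level of 7 adipocyte markers was 20.00, 432 and 220 CPM in PBS sham 1, 2 and 3, and 0.1000, 0.173, 0.189 and 0.336 CPM in the vector-labelled TAC libraries, where Adipoq, Lep, Ucp1 and Retn were at 0 in all 4. The summed level of 6 mesothelial markers was 12.6, 327 and 195 CPM in PBS sham against 4.49 to 21.8 CPM. The summed level of 6 smooth muscle markers was 401, 488 and 2120 CPM against 294 to 372 CPM. The 7 cardiomyocyte markers, which define the labelled tissue, summed to 54800, 45500 and 22600 CPM against 44400 to 51600 CPM. PBS sham 3 therefore had the lowest cardiomyocyte and the highest smooth muscle transcripts, and its TMM factor was 1.39 against 0.937 to 1.07 in the other 6 libraries. Atrial transcripts (7 markers) were high in PBS sham 2 (5950 CPM) and, among the vector-labelled TAC libraries, in the third (2100 CPM). In whole-heart RNA, fewer cells of a type and less RNA per cell cannot be told apart. Adipocyte markers were lower in all 4 vector-labelled TAC libraries than in all 3 PBS sham libraries, so a fitted effect of group and of adipocyte content cannot be told apart. Results are therefore also given with PBS sham 1 as the only control, where the lone library is assumed to vary like the other groups.

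**Figure D1:**
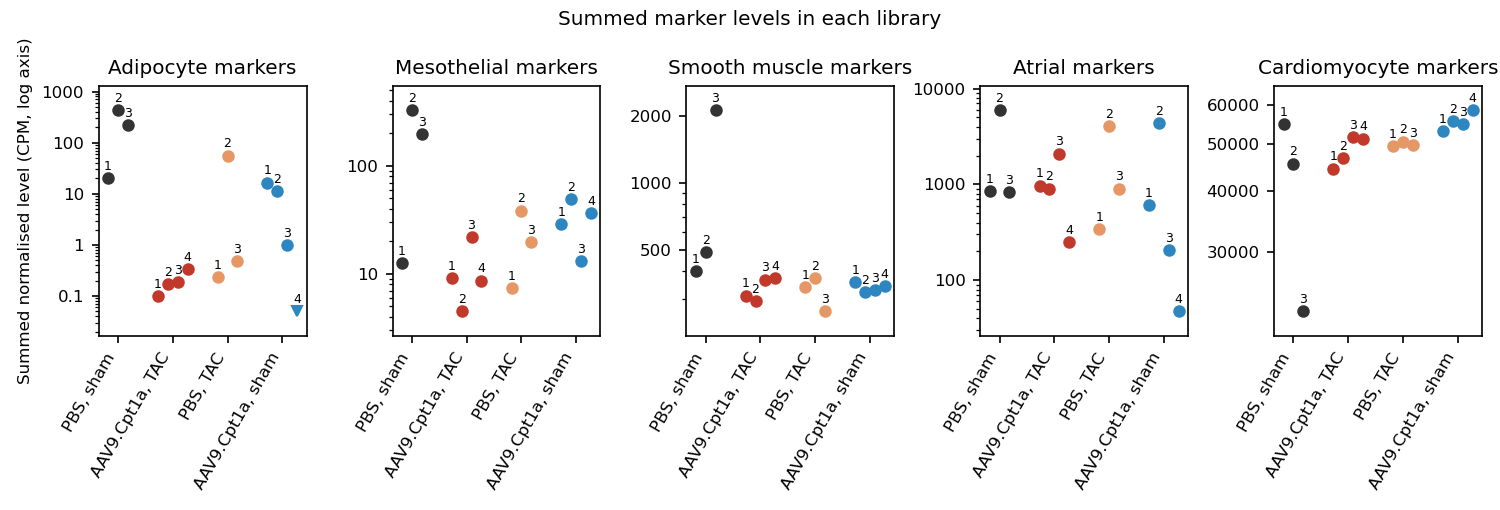
Summed level in CPM (log axis) of adipocyte, mesothelial, smooth muscle, atrial and cardiomyocyte markers in each of 14 libraries, 1 point per library with its replicate number. The triangle marks a sum of 0, drawn at the bottom of the axis. PBS sham 2 and PBS sham 3 had the highest adipocyte and mesothelial sums, and PBS sham 3 the lowest cardiomyocyte sum (22600 CPM).

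The gene that the vector carries was measured first (chr19:3322334-3385733, plus strand, build GRCm38). Cpt1a was at 37.4, 50.8 and 68.04 CPM in PBS sham and at 52.03, 62.7, 59.96 and 44.8 CPM in the vector-labelled TAC libraries. The groups overlapped, and the log2 difference was 0.07 (95% interval -0.39 to 0.53, adjusted p = 0.83, edgeR quasi-likelihood test). PBS TAC held 57.1, 61.6 and 40.3 CPM and the vector-labelled sham libraries 88.4, 56.3, 73.3 and 67.4 CPM. Against PBS TAC, the log2 difference was 0.05 (95% interval -0.41 to 0.51). With PBS sham 1 as the only control it was 0.55 (adjusted p = 0.56), and without PBS sham 1 it was -0.10 (adjusted p = 0.72). Whether transcripts of the vector are counted as Cpt1a depends on its sequence, which is not given in the sources used here. Cpt1a thus does not show which libraries had the vector, and the groups are called vector-labelled throughout.

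Of 15745 genes tested, 332 (2.11%) passed an adjusted p of 0.05 between vector-labelled TAC and PBS sham. 76 were higher (0.483%) and 256 lower (1.63%) in the vector-labelled TAC libraries. The libraries of the groups did not overlap for 303 of the 332, and for 15.7% of all genes tested. A change of over 2-fold was fitted for 219 of the 332, 39 higher and 180 lower. The count depended on single libraries. It was 4242 without PBS sham 1, 559 without PBS sham 2 and 351 without PBS sham 3. Without vector-labelled TAC 1, 2, 3 and 4 it was 25, 18, 53 and 17. With PBS sham 1 as the only control, 1 gene passed (Noct), and with only the 7 libraries in the fit 0 genes passed (edgeR, with 2149 at an unadjusted p under 0.05, while DESeq2 on all 14 libraries called 1360). With the atrial gene Myl7 as a covariate 1 gene passed (Noct). The share of higher genes among those called moved from 22.9% to 38.7% without PBS sham 3, to 38.0% without PBS sham 1 and to 35.1% with limma voom, and to 14.7% without PBS sham 2 and 16.8% without a filter on low counts. Without each library in turn, every one of the 332 genes tested there kept its sign, as genes chosen on these libraries mostly must, and with PBS sham 1 as the only control 328 of 332 did.

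15 of the 332 genes passed whichever of the 7 libraries was left out, 5 higher (Aqp8, CN725425, Gm13943, Gprc5c and Rrad) and 10 lower (Arrdc2, Banp, Cdc42ep4, Fam107a, Flrt3, Map3k6, Noct, Nrgn, Per2 and Tsc22d3). All the others lost the call without at least 1 library.

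The rises held a part of the hypertrophic gene programme. Of 14 genes known to respond to haemodynamic load, 3 rose (Acta1, Ankrd1 and Xirp2) and none fell, against 0.483% higher over all genes tested. Their median log2 difference was 1.04 against -0.03 over all genes tested. Acta1 encodes skeletal alpha-actin, which overloaded ventricles re-express (chr8:123891769-123894751, minus strand). It was at 299, 163 and 106 CPM in PBS sham and at 3218, 8675, 1813 and 2692 CPM in the vector-labelled TAC libraries. All 4 overloaded hearts lay above all 3 healthy hearts, and the second was the highest. The log2 difference was 4.44 (SE 0.94, adjusted p = 0.035), and 3.78 with PBS sham 1 as the only control. Ankrd1, a stretch-responsive titin-binding repressor, rose by 1.91 (SE 0.45, adjusted p = 0.048) from 1569, 1457 and 551 CPM to 5028, 7002, 2434 and 3416 CPM. Xirp2, an actin-binding protein of the intercalated disc, rose by 1.95 (SE 0.41, adjusted p = 0.033) from 514, 363 and 192 CPM to 1364, 2428, 723 and 969 CPM. The PBS TAC libraries lay in the same range, with Acta1 at 3363, 2362 and 5055 CPM. Without each library in turn the adjusted p of Acta1 ran from 0.013 to 0.10, that of Ankrd1 from 0.015 to 0.14 and that of Xirp2 from 0.0080 to 0.099: the first pair lost the call without each library but PBS sham 1, and Xirp2 without vector-labelled TAC 1, 2 or 4.

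The promoters of Acta1 (chr8:123894776-123895025, minus strand) and Ankrd1 (chr19:36119845-36120094, minus strand) are shown because these muscle genes rose together. Each run is the 250 bases before the start in RefSeq, build GRCm38, 5' to 3' on the gene's strand. Capitals mark the MCAT element (CATTCC on either strand, the site of TEAD factors) and, in Acta1, also a CArG box, the site of serum response factor. Of 32851 promoters of this length, 12.6% hold the MCAT letters and 1.47% a CArG box. Xirp2 has neither in this window.
Acta1: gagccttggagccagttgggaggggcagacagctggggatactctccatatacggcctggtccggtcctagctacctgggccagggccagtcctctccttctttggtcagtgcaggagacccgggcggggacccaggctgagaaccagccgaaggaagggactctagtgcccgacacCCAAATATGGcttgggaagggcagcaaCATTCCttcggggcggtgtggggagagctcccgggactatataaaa
Ankrd1: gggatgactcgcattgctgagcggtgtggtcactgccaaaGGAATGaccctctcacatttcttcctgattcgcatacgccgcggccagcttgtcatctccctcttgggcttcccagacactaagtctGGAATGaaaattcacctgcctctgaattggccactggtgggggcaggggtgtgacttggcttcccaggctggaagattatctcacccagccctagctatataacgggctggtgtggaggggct

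The other classical load genes did not pass. Myh7, the slow fetal myosin heavy chain, was at 631, 522 and 699.7 CPM in PBS sham and 2734, 2002, 798 and 938 CPM in vector-labelled TAC (log2 difference 1.39 ± 0.41 SE, adjusted p = 0.076). Its groups did not overlap, and vector-labelled TAC 3 and 4 lay closest to the healthy ones. Nppb, which encodes B-type natriuretic peptide, was at 278, 173 and 17.2 CPM and 799.6, 741, 264 and 339 CPM (log2 difference 1.78 ± 0.73 SE, adjusted p = 0.15), and its groups overlapped. Nppa, which encodes atrial natriuretic peptide, was at 288, 2594 and 131 CPM and 944, 883, 993 and 213 CPM. Nppa was highest in PBS sham 2, the library of highest atrial transcripts, and 61.5% of its exonic bases are shared with a gene on the other strand. Myh7 and Nppb were chosen after their values were seen.

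**Figure D2:**
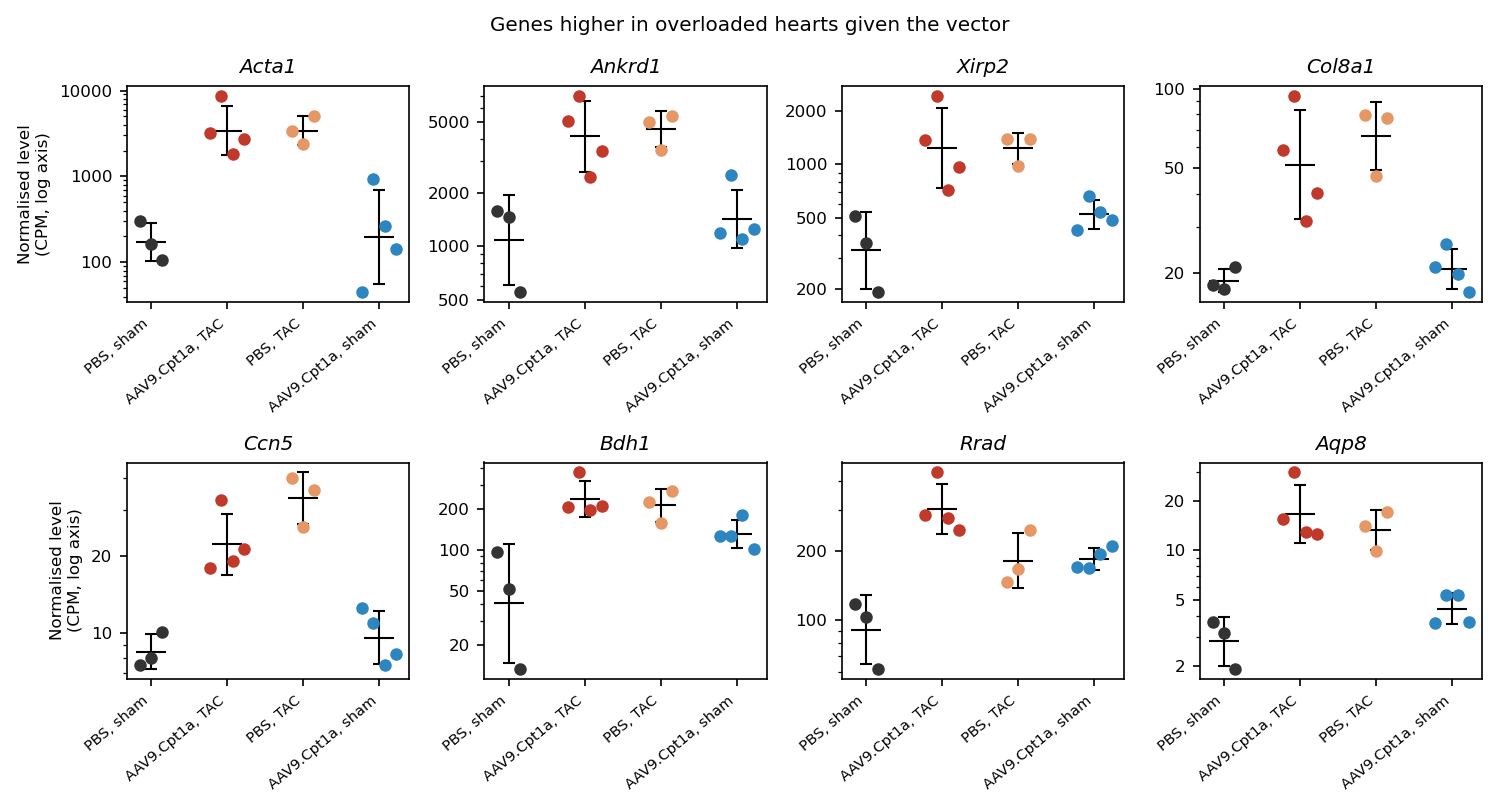
Level in CPM (log axis) of 8 genes that were higher in vector-labelled TAC than in PBS sham, 1 point per library in 4 groups. The bar is the geometric mean and the whiskers are 1 SD of log2 CPM. For all 8 genes the 4 vector-labelled TAC libraries lie above the 3 PBS sham libraries, and Acta1 spans 1813 to 8675 CPM among them.

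The other large rises lay outside the load list. Aqp8, a water channel, rose from 3.67, 3.16 and 1.92 CPM to 15.6, 29.7, 13.00 and 12.5 CPM (log2 difference 2.61 ± 0.35 SE, adjusted p = 0.0078; 2.27 with PBS sham 1 alone). Rrad, a small GTPase that restrains L-type calcium channels, rose from 118, 103 and 61.7 CPM to 284, 437, 277 and 245 CPM (log2 difference 1.72 ± 0.26 SE, adjusted p = 0.014; 1.40 with PBS sham 1 alone). Both kept the call without each library in turn. Bdh1, the mitochondrial enzyme that oxidises the ketone body 3-hydroxybutyrate, rose from 96.8, 51.8 and 13.5 CPM to 208, 372, 197 and 209.5 CPM (log2 difference 2.19 ± 0.49 SE, adjusted p = 0.042). PBS sham 3, the library low in cardiomyocyte transcripts, was lowest for Bdh1, and the difference was 1.73 without it and 1.35 with PBS sham 1 alone. Cpxm2 (log2 difference 1.98 ± 0.38 SE, adjusted p = 0.028), Edn3, which encodes endothelin 3 (3.27 ± 0.76 SE, adjusted p = 0.047), Cnksr1 (1.88 ± 0.44 SE, adjusted p = 0.048) and the non-coding RNAs Gm13943 (2.57 ± 0.38 SE, adjusted p = 0.014), Gm33609 (1.95 ± 0.47 SE, adjusted p = 0.050) and E230013L22Rik (1.70 ± 0.40 SE, adjusted p = 0.048) completed the 12 largest rises. For each of them the 4 overloaded hearts lay above the 3 healthy hearts, as the choice of these genes required. Bdh1, Rrad, Cpxm2 and E230013L22Rik share 7.59% to 19.2% of their exonic bases with a gene on the other strand, so their reads are uncertain. Chosen after their values were seen, Gprc5c rose by 0.92 (SE 0.13, adjusted p = 0.013) from 6.14, 6.09 and 7.02 CPM to 11.9, 12.6, 12.4 and 11.7 CPM, Clic5 by 1.16 (SE 0.24, adjusted p = 0.034), CN725425 by 1.80 (SE 0.27, adjusted p = 0.014) and Hif1a, the oxygen-sensing transcription factor, by 0.84 (SE 0.19, adjusted p = 0.042). Clic5 lost the call without each vector-labelled TAC library (adjusted p up to 0.11), and Hif1a also without PBS sham 3 (up to 0.12). Of the 12 largest rises Bdh1, Cpxm2 and E230013L22Rik lost the call without each vector-labelled TAC library, Bdh1 also without PBS sham 2, and Edn3, Cnksr1 and Gm33609 without each library but PBS sham 1, with adjusted p up to 0.14.

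Of 63 genes of the extracellular matrix 2 passed, a share near the 2.11% over all genes tested. Of 27 structural matrix genes 1 rose (Col8a1) and none fell, with a median log2 difference of -0.03. Col8a1, a short-chain collagen of vessel walls and remodelling tissue, was at 17.98, 17.4 and 21.03 CPM in PBS sham and 58.6, 94.02, 31.6 and 40.2 CPM in vector-labelled TAC (log2 difference 1.58 ± 0.32 SE, adjusted p = 0.030). Of 36 matricellular and crosslinking genes 1 rose (Ccn5) and none fell, with a median of -0.07. Ccn5, a CCN protein known to oppose fibrosis, was at 7.56, 8.03 and 10.1 CPM and 17.9, 32.8, 19.1 and 21.3 CPM (log2 difference 1.41 ± 0.24 SE, adjusted p = 0.025; 1.59 with PBS sham 1 alone). Col8a1 lost the call without vector-labelled TAC 1, 2 or 4, and Ccn5 without 2 or 4, with adjusted p up to 0.099 and 0.066. The basement membrane chains Col4a1 (467, 485 and 488 CPM against 798, 836, 597 and 609.7 CPM) and Col4a2 (368, 386 and 370.4 CPM against 635, 686, 488 and 499 CPM) did not overlap between the groups, at adjusted p of 0.068 and 0.055. Col1a1, the main fibrillar collagen chain, was at 129, 204 and 176 CPM and 156, 234, 146 and 128 CPM. Postn, which activated fibroblasts make, was at 52.4, 70.5 and 134 CPM and 197, 230.3, 63.2 and 77.1 CPM, above all healthy hearts in vector-labelled TAC 1 and 2 and within their range in 3 and 4; Col1a1 and Postn were chosen after their values were seen. Of 22 genes of TGF-beta signalling none passed (median -0.22); Ltbp1, which tethers latent TGF-beta to the matrix, had the smallest p (log2 difference -0.46 ± 0.14 SE, adjusted p = 0.086). The medians of the 3 lists were 0.36, 0.30 and 0.13 with PBS sham 1 as the only control, and so turned in sign.

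Among contractile and electrical genes 1 passed. None of 20 genes of contraction and calcium handling passed, and 17 of 20 were fitted higher (median 0.39). Myh6, the adult myosin heavy chain, was at 28680, 25800 and 11190 CPM in PBS sham and 23350, 22630, 28570 and 26970 CPM in vector-labelled TAC, where PBS sham 3 was the lowest. Atp2a2, the calcium pump of the sarcoplasmic reticulum, was at 13530, 12750 and 1907 CPM and 11220, 11290, 13400 and 12310 CPM. The list's median was 0.10 without PBS sham 3 and -0.16 with PBS sham 1 alone. Mybpc3, which binds the thick filament, had the smallest p (4201, 3246 and 1555 CPM against 5540, 5814, 4607 and 4864 CPM, log2 difference 0.79 ± 0.28 SE, adjusted p = 0.11). Of 24 ion channels 1 fell and none rose (median -0.07), against 1.63% lower over all genes tested. Kcna5, the ultrarapid potassium channel of repolarisation, fell from 47.6, 38.7 and 57.4 CPM to 28.7, 23.7, 23.7 and 27.8 CPM (log2 difference -0.88 ± 0.16 SE, adjusted p = 0.027; -0.87 with PBS sham 1 alone), without overlap, and lost the call without each vector-labelled TAC library (adjusted p up to 0.095). Gja1, the connexin of the gap junction, was at 330.5, 312 and 135 CPM and 491, 472, 389.9 and 432 CPM (adjusted p = 0.091).

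Among genes of fuel use Bdh1 alone passed. None of 24 genes of beta-oxidation, 17 of the citric acid cycle, 39 of the respiratory chain, 29 of glucose use and 15 metabolic regulators passed. None of the 29 tested of 30 fatty acid handling genes did. Of 23 genes of ketone and branched-chain amino acid use 1 rose (Bdh1), against 0.483% higher over all genes tested. The medians of these 7 lists were 0.40, 0.40, 0.30, 0.41, 0.07, 0.19 and 0.32. The medians moved with PBS sham 3, the library low in cardiomyocyte transcripts. Hadha, a subunit of the mitochondrial trifunctional protein, was at 1645, 1293 and 262 CPM in PBS sham and 1331, 1249, 1542 and 1510 CPM in vector-labelled TAC. Fabp3, the fatty acid binding protein of heart, was at 3346, 2126 and 538 CPM and 3002, 3723, 3229 and 3580 CPM. Ogdh of the citric acid cycle was at 2270, 1940 and 452 CPM and 2317, 2250, 2319 and 2390 CPM, and Atp5b of the ATP synthase at 5943, 4887 and 1560 CPM and 4724, 4612, 5054 and 5325 CPM. In each gene PBS sham 3 was far below the other 6 libraries. Without PBS sham 3 the medians of the same 7 lists were -0.01, -0.03, -0.03, 0.07, -0.11, 0.00 and -0.05. With PBS sham 1 as the only control all 7 turned negative, at -0.20, -0.19, -0.23, -0.04, -0.11, -0.08 and -0.14, with 38 of 39 respiratory chain genes and 16 of 17 of the citric acid cycle fitted lower. Among single genes with the smallest p, Gpam, the first enzyme of triglyceride synthesis, was at 149, 117 and 59.8 CPM and 199, 190.1, 199 and 189.5 CPM (adjusted p = 0.071). Nrf1, a regulator of mitochondrial genes, was at 16.1, 16.8 and 25.3 CPM and 12.3, 11.4, 14.3 and 13.5 CPM (adjusted p = 0.052).

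The clock-controlled gene Noct had the smallest p of the comparison. The heart keeps its own circadian clock, in which Arntl and Clock drive the Per and Cry repressors. Of 22 clock and clock-output genes 3 fell (Noct, Per1 and Per2) and none rose, against 1.63% lower over all genes tested. Their median log2 difference was -0.19. Noct, a rhythmic NADP(H) phosphatase of the deadenylase family (chr3:51224447-51251644, plus strand), was at 59.8, 59.3 and 59.6 CPM in PBS sham and 23.7, 23.2, 27.6 and 30.01 CPM in vector-labelled TAC. The groups did not overlap, with means of 59.5 ± 0.207 CPM (SD, n = 3) and 26.1 ± 3.26 CPM (SD, n = 4) and a log2 difference of -1.19 (SE 0.10, adjusted p = 0.00032). It was -1.19 with PBS sham 1 as the only control (adjusted p = 0.0058), and Noct kept the call without each library in turn (adjusted p 0.00018 to 0.0031). Per2, a repressor arm of the clock (chr1:91415982-91459324, minus strand), fell from 30.5, 37.01 and 74.7 CPM to 9.15, 3.802, 7.07 and 10.1 CPM (log2 difference -2.65 ± 0.33 SE, adjusted p = 0.0052; -2.002 with PBS sham 1 alone, adjusted p = 0.053). Per1 fell from 85.8, 139 and 186 CPM to 54.7, 61.4, 53.5 and 69.9 CPM (log2 difference -1.19 ± 0.20 SE, adjusted p = 0.019; -0.52 with PBS sham 1 alone), and lost the call without each vector-labelled TAC library (adjusted p up to 0.080). Arntl, their activator, was at 8.94, 12.1 and 7.34 CPM and 15.7, 19.8, 15.8 and 12.8 CPM, without overlap (log2 difference 0.76 ± 0.22 SE, adjusted p = 0.075). Dbp, Tef and Nr1d1, outputs of the clock, were at 58.98, 41.3, 62.99 and 82.6 CPM, 110.2, 86.2, 106 and 120.2 CPM and 114, 115, 132 and 137 CPM in vector-labelled TAC against 78.8, 58.4 and 80.9 CPM, 139.6, 117 and 242 CPM and 112, 105 and 83.4 CPM in PBS sham, and none passed; Dbp and Nr1d1 were chosen after their values were seen. The labels give no hour of collection, so the hour and the group cannot be told apart.

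The promoter of Per1 (chr11:69098699-69098948, plus strand) is shown as that of a clock gene that fell. The run is the 250 bases before one of its RefSeq starts, build GRCm38, 5' to 3', and capitals mark the E-box CACGTG that Clock and Arntl bind. Of 32851 promoters of this length 6.02% hold the letters. Per1 has 2 listed starts, and the start shown is the 1 with the letters. Noct and Arntl do not hold them in this window.
Per1: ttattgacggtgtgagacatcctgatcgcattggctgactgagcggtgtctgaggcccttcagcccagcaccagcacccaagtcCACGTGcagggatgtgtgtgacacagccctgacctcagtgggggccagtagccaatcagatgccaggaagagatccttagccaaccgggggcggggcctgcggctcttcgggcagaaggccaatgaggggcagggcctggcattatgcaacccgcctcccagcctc

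In the PBS TAC libraries the same clock genes stood elsewhere. Noct was at 41.3, 40.3 and 39.5 CPM there and at 49.4, 43.9, 43.6 and 44.2 CPM in the vector-labelled sham libraries, both between the groups compared above. Per2 was at 42.4, 41.96 and 41.8 CPM in PBS TAC and 21.02, 14.2, 24.2 and 18.4 CPM in vector-labelled sham. Arntl was at 3.45, 2.42 and 2.17 CPM in PBS TAC, below every other library of the cohort, and at 9.07, 12.3, 10.00 and 7.45 CPM in vector-labelled sham. Between vector-labelled TAC and PBS TAC, Per2 fell by 2.47 (SE 0.33, adjusted p = 0.012) on the log2 scale, and Arntl rose by 2.58 (SE 0.25, adjusted p = 0.0010). Ciart, a clock repressor, was at 11.4, 7.95, 8.65 and 15.9 CPM in vector-labelled TAC and 33.1, 33.3 and 35.5 CPM in PBS TAC, and fell by 1.62 (SE 0.23, adjusted p = 0.018).

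**Figure D3:**
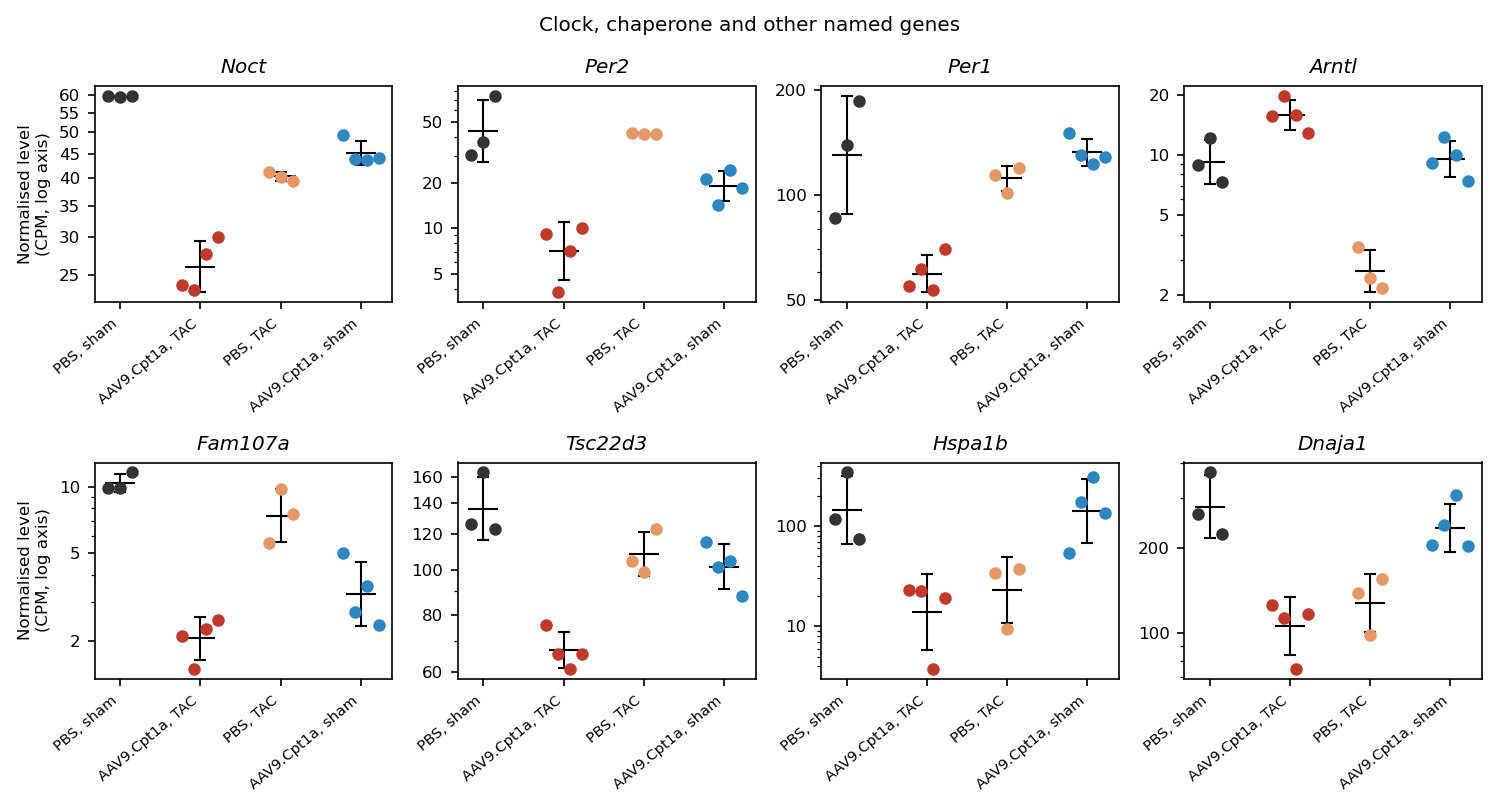
Level in CPM (log axis) of 4 clock genes, Fam107a, Tsc22d3 and 2 chaperone genes, 1 point per library in 4 groups. The bar is the geometric mean and the whiskers are 1 SD of log2 CPM. Noct was at 23.2 to 30.01 CPM in vector-labelled TAC, below all other libraries of the cohort, and Arntl was lowest in PBS TAC.

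Inducible heat shock genes fell. Of 26 chaperone genes 3 fell (Hspa1a, Hspa1b and Dnaja1) and none rose, against 1.63% lower over all genes tested. Their median log2 difference was -0.26. Hspa1a and Hspa1b encode the same inducible HSP70 and are near-identical copies, so reads may be split between them, and their sum was used as well. The sum was 194, 561 and 139 CPM in PBS sham and 41.6, 39.7, 6.94 and 36.6 CPM in vector-labelled TAC, without overlap. The log2 differences were -3.09 (SE 0.66, adjusted p = 0.035) for Hspa1a and -3.37 (SE 0.71, adjusted p = 0.035) for Hspa1b, and -2.45 and -2.76 with PBS sham 1 alone. Dnaja1, a co-chaperone of HSP70, fell from 265, 370.4 and 224 CPM to 126, 113, 74.9 and 117 CPM (log2 difference -1.41 ± 0.23 SE, adjusted p = 0.019). Chordc1, an HSP90 co-chaperone chosen after its values were seen, fell from 73.5, 94.96 and 76.8 CPM to 45.2, 46.5, 34.3 and 43.7 CPM (log2 difference -0.94 ± 0.16 SE, adjusted p = 0.019). Dnaja1 lost the call without vector-labelled TAC 2 or 4, Chordc1 without 1, 2 or 4, and the HSP70 pair without PBS sham 2 or each vector-labelled TAC library, with adjusted p up to 0.069, 0.066 and 0.11. PBS TAC was low too, with Dnaja1 at 138, 98.5 and 155 CPM, and vector-labelled sham was not, with 205, 241, 308 and 204 CPM. The abundant Hsp90ab1 (2298, 2342 and 1192 CPM against 1973, 2153, 1697 and 1989 CPM) and the muscle chaperone Hspb7 (2407, 1558 and 342 CPM against 2944, 4262, 2489 and 2825 CPM) did not pass. Without PBS sham 3, 15 of the 26 chaperone genes fell (median -0.53), against 215 of all 15901 genes tested in that fit. Most of these 15 are endoplasmic reticulum genes (Calr, Hsp90b1, Pdia6, Sdf2l1, Creld2, Pdia4, Hspa5, Pdia3, Hyou1 and Manf). The others were Dnajb1, Dnaja1, Hsph1, Hspa1a and Hspa1b.

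The promoters of the HSP70 pair and of Dnaja1 are shown because these genes fell together and because the pair is hard to separate by reads. They lie at chr17:34972157-34972406, minus strand (Hspa1a), chr17:34959239-34959488, minus strand (Hspa1b) and chr4:40722218-40722467, plus strand (Dnaja1), each 250 bases before a RefSeq start, build GRCm38, 5' to 3'. Capitals mark a heat shock element searched as GAANNTTC, which 6.69% of 32851 promoters of this length hold. Dnaja1 has 3 listed starts, and the start shown is the 1 with these letters. The Hspa1a and Hspa1b runs differ at 3 of 250 bases. Chordc1 has no such letters in this window.
Hspa1a: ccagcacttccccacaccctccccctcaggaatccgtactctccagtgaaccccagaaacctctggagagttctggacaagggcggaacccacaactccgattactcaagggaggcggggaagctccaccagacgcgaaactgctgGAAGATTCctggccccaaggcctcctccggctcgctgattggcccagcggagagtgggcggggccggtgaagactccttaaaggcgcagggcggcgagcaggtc
Hspa1b: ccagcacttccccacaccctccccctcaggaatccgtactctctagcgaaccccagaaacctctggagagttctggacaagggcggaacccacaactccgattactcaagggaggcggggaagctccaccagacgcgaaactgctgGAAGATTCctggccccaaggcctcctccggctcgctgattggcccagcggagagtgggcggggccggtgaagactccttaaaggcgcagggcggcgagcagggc
Dnaja1: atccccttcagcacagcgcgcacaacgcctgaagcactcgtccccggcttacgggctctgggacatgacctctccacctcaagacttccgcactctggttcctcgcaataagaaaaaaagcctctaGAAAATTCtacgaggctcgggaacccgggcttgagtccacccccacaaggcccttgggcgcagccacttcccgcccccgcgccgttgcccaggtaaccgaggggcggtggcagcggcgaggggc

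Of the 23 tested of 24 amino acid and integrated stress response genes 2 fell and none rose (median -0.15). Over all genes tested 1.63% fell. Phgdh, the first enzyme of serine synthesis, was at 2.47, 8.64 and 4.03 CPM in PBS sham and 1.65, 1.67, 0.821 and 1.73 CPM in vector-labelled TAC (log2 difference -1.77 ± 0.39 SE, adjusted p = 0.039; -0.73 with PBS sham 1 alone). Ddit3, which encodes CHOP, fell from 27.8, 29.7 and 41.8 CPM to 23.1, 23.2, 21.8 and 23.7 CPM (log2 difference -0.53 ± 0.12 SE, adjusted p = 0.046), is uncertain because its symbol has 2 identifiers and its exons overlap other genes, and was lower still in vector-labelled sham (17.6, 17.7, 17.1 and 17.2 CPM). Atf4, the activator of the response, was at 92.1, 104 and 83.1 CPM and 87.4, 102, 72.1 and 78.8 CPM. The calls of Phgdh and Ddit3 were lost without each vector-labelled TAC library, and that of Phgdh also without PBS sham 2. Their adjusted p went up to 0.11 for Phgdh and 0.12 for Ddit3.

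The following falls, except for Nrgn, were chosen after their values were seen. Fam107a, an actin-associated gene known to respond to glucocorticoids, fell from 9.92, 9.86 and 11.7 CPM to 2.099, 1.498, 2.27 and 2.497 CPM (log2 difference -2.32 ± 0.26 SE, adjusted p = 0.0031; -2.24 with PBS sham 1 alone). Tsc22d3, the glucocorticoid-induced leucine zipper, fell from 126, 164 and 123 CPM to 75.7, 65.7, 60.9 and 65.7 CPM (log2 difference -1.04 ± 0.14 SE, adjusted p = 0.0078; -0.91 with PBS sham 1 alone). In neither gene did the groups overlap. Arrdc2, an alpha-arrestin, fell from 18.8, 19.2 and 49.8 CPM to 4.799, 5.93, 6.31 and 7.35 CPM (log2 difference -2.27 ± 0.31 SE, adjusted p = 0.0089; -1.62 with PBS sham 1 alone), with PBS sham 3 the highest. Map3k6, a stress-activated kinase, fell from 25.9, 30.3 and 48.2 CPM to 11.3, 10.9, 9.53 and 11.3 CPM (log2 difference -1.69 ± 0.25 SE, adjusted p = 0.013). Depp1, a target of FOXO factors, fell from 56.1, 50.1 and 59.5 CPM to 22.9, 26.7, 14.9 and 18.2 CPM (log2 difference -1.42 ± 0.23 SE, adjusted p = 0.019), and lost the call without vector-labelled TAC 1 or 4 (adjusted p up to 0.070). Banp, a nuclear DNA-binding protein, fell from 19.6, 22.6 and 23.8 CPM to 12.3, 8.58, 9.15 and 9.08 CPM (log2 difference -1.17 ± 0.13 SE, adjusted p = 0.0031). Banp was also low in PBS TAC (12.6, 11.4 and 11.7 CPM) and in vector-labelled sham (9.58, 10.3, 8.42 and 9.27 CPM), below all 3 PBS sham libraries in both. Nrgn, a calmodulin-binding protein, fell from 11.8, 12.96 and 19.8 CPM to 6.45, 4.84, 4.67 and 5.71 CPM (log2 difference -1.46 ± 0.19 SE, adjusted p = 0.0065), with PBS TAC at 5.85, 5.19 and 4.87 CPM and vector-labelled sham at 6.76, 5.64, 6.02 and 7.39 CPM. Cdc42ep4, an effector of the GTPase Cdc42, fell from 30.7, 30.5 and 33.2 CPM to 15.4, 20.3, 16.9 and 21.1 CPM (log2 difference -0.77 ± 0.12 SE, adjusted p = 0.014). Flrt3, a membrane adhesion protein, had 0.548, 0.7202 and 1.04 CPM in PBS sham and 0 counts in all 4 vector-labelled TAC libraries, at least 19.0-fold lower against a floor of 3 counts over the group. Rhobtb1, an atypical small GTPase, fell from 150.3, 170 and 152 CPM to 89.4, 64.98, 78.3 and 106 CPM (log2 difference -0.90 ± 0.17 SE, adjusted p = 0.028), while PBS TAC held 210.4, 219 and 175 CPM. Promoters of Fam107a, Tsc22d3 and Arrdc2 were searched for ACANNNTGT, paired half-sites of the glucocorticoid receptor on either strand, which 5.84% of 32851 promoters hold. The letters were found before 2 of 3 listed starts of Fam107a and not in these windows of the others. The call of Rhobtb1 was lost without vector-labelled TAC 1, 2 or 3 (adjusted p up to 0.095).

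The largest falls were adipocyte genes. Adipoq, Retn, Cidec, Cfd and Plin1 are themselves members of the adipocyte marker sum given above, so they follow it by construction. Of the 6 tested of 7 adipocyte markers 5 fell and none rose, against 1.63% lower over all genes tested. Adipoq, which encodes adiponectin, was at 2.85, 41.7 and 16.4 CPM in PBS sham and had 0 counts in all 4 vector-labelled TAC libraries, at least 501-fold lower against a floor of 3 counts over the group. Retn, which encodes resistin, was likewise at 0.877, 18.3 and 10.7 CPM and at 0, at least 246-fold lower. Cidec, a lipid droplet protein, was at 3.23, 38.3 and 21.1 CPM against 3 counts in all, a ratio of 515 (counting interval 176 to 2500). Cfd, the adipocyte serine protease adipsin, fell from 9.099, 290.1 and 152 CPM to 0.04998, 0.173, 0 and 0.192 CPM, and Plin1, a lipid droplet coat protein, from 3.62, 41.2 and 17.3 CPM to 0.04998, 0, 0.0631 and 0.09605 CPM. In each of these PBS sham 2 was the highest and PBS sham 1 the lowest of the healthy hearts. The folds of Adipoq, Retn and Cidec use the mean of the 3 PBS sham libraries, which PBS sham 2 and 3 raise. The fitted log2 difference of Cidec was -8.78, and -6.09 with PBS sham 1 alone. Car3 (log2 difference -9.43 ± 2.02 SE, adjusted p = 0.035), Pck1 (-8.94 ± 1.58 SE, adjusted p = 0.026), Hp (-7.79 ± 1.43 SE, adjusted p = 0.028) and Cyp2e1 (-7.47 ± 1.76 SE, adjusted p = 0.048), all strongly expressed in fat, were among the 12 largest falls, and with PBS sham 1 alone their values were -6.28, -5.84, -5.12 and -4.999. Chst4 and Cybrd1 were among them too, at log2 differences of -6.44 (SE 1.36, adjusted p = 0.035) and -5.40 (SE 1.03, adjusted p = 0.028). The lipogenic genes Scd1 (17.6, 145 and 95.5 CPM against 16.8, 15.2, 13.4 and 12.7 CPM) and Fasn (29.4, 165 and 73.5 CPM against 22.8, 24.1, 28.3 and 23.1 CPM), chosen after their values were seen, fell by 2.56 and 1.86 on the log2 scale, and by 0.28 and 0.26 with PBS sham 1 alone. All these calls were lost without each vector-labelled TAC library (adjusted p up to 0.14), those of Adipoq, Retn, Cyp2e1, Scd1 and Fasn also without PBS sham 2, and that of Adipoq without PBS sham 3. PBS TAC 2 also held adipocyte transcripts (Adipoq 0.0585, 6.57 and 0 CPM), and vector-labelled sham held 1.92, 0.613, 0.117 and 0 CPM.

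Single markers of mesothelium, smooth muscle and cartilage were called lower as well, against 1.63% lower over all genes tested. Of 6 mesothelial markers Wt1 fell (7.89, 31.5 and 33.1 CPM against 9.05, 4.44, 4.92 and 5.19 CPM, log2 difference -2.03 ± 0.38 SE, adjusted p = 0.028; -0.41 with PBS sham 1 alone), and the list's median went from -4.94 to -0.21 with PBS sham 1 alone. Of 6 smooth muscle markers Cnn1 fell (4.33, 13.3 and 131 CPM against 2.25, 4.95, 4.36 and 4.18 CPM, log2 difference -3.67 ± 0.84 SE, adjusted p = 0.045), and it had an adjusted p of 0.21 without PBS sham 3. With PBS sham 1 alone the difference of Cnn1 was -0.14, and the smooth muscle median went from -2.26 to -0.19. Of the 2 tested of 5 cartilage markers Chad fell (8.55, 20.1 and 2.39 CPM against 0.3499, 0.979, 1.01 and 0.624 CPM, log2 difference -3.81 ± 0.84 SE, adjusted p = 0.039; -3.54 with PBS sham 1 alone). The groups overlapped for Wt1 and Cnn1. The call of Wt1 was lost without vector-labelled TAC 2, 3 or 4 (adjusted p up to 0.096), that of Chad without PBS sham 2 or each vector-labelled TAC library (up to 0.12), and that of Cnn1 also without each vector-labelled TAC library. Gpc3, a heparan sulphate proteoglycan chosen after its values were seen, was at 8.003, 60.3 and 35.1 CPM and 2.35, 3.17, 5.996 and 4.08 CPM (log2 difference -3.15 ± 0.59 SE, adjusted p = 0.028; -1.05 with PBS sham 1 alone). The maternally expressed non-coding RNAs Meg3 (30.9, 49.9 and 134 CPM against 15.6, 17.97, 21.97 and 20.9 CPM, log2 difference -1.91 ± 0.38 SE, adjusted p = 0.030; -0.70 with PBS sham 1 alone), Rian (-1.60 ± 0.29 SE, adjusted p = 0.028; -0.67 with PBS sham 1 alone) and Mirg (-2.26 ± 0.44 SE, adjusted p = 0.028; -1.59 with PBS sham 1 alone), also chosen afterwards, come from a single imprinted locus and fell together, with PBS sham 3 the highest for each. Gpc3 and these RNAs lost the call without each vector-labelled TAC library (adjusted p up to 0.10). No marker passed among 7 of cardiomyocytes, 7 of atrium, 7 of fibroblasts, 8 of endothelium, 6 of pericytes, 13 of macrophages, 5 tested of 11 of lymphocytes, 3 tested of 7 of neutrophils and 5 of erythroid cells. Their medians were 0.27, -1.45, -0.16, -0.16, 0.26, -0.06, -1.82, -0.997 and 0.51. Without PBS sham 3, 2 endothelial markers (Aplnr and Kdr) and 2 pericyte markers (Pdgfrb and Cspg4) rose, against 136 of all 15901 genes tested. The endothelial median turned to 0.27 in that fit. With PBS sham 1 as the only control the medians of cardiomyocytes, fibroblasts, endothelium, macrophages and lymphocytes turned in sign, to -0.18, 0.17, 0.25, 0.02 and 0.59, and the atrial median was -0.41. These genes were named after their values were seen. Of the 6 tested of 9 skeletal muscle markers Acta1 alone passed, while Ckm was at 1726, 1216 and 301 CPM and 1399, 1645, 1569 and 1687 CPM and Myh4 was at 0 in all 7 libraries.

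Of the 24 tested of 32 cytokine and chemokine genes 2 rose and 1 fell, against 0.483% higher and 1.63% lower over all genes tested. Their median was -0.42, and 0.07 with PBS sham 1 alone. Cx3cl1, the membrane-bound chemokine fractalkine, rose from 11.4, 9.97 and 13.3 CPM to 18.3, 19.4, 19.3 and 17.3 CPM (log2 difference 0.68 ± 0.13 SE, adjusted p = 0.028; 0.70 with PBS sham 1 alone). Ackr4, a chemokine scavenger, rose from 3.34, 2.22 and 2.87 CPM to 5.898, 7.03, 4.73 and 5.09 CPM (log2 difference 1.01 ± 0.24 SE, adjusted p = 0.050; 0.77 with PBS sham 1 alone), and PBS TAC was higher still at 8.66, 7.896 and 12.9 CPM. Il33, an alarmin of stromal cells, fell from 4.77, 32.6 and 10.6 CPM to 1.699, 2.71, 3.598 and 2.16 CPM (log2 difference -2.66 ± 0.60 SE, adjusted p = 0.042; -0.92 with PBS sham 1 alone), and PBS sham 2 was far the highest. Of the 32 tested of 33 interferon-response genes Ifi27l2a fell (14.5, 48.98 and 61.3 CPM against 14.7, 12.4, 10.3 and 13.4 CPM, log2 difference -1.71 ± 0.40 SE, adjusted p = 0.048; -0.18 with PBS sham 1 alone); its groups overlapped, since PBS sham 1 lay among the overloaded hearts. With RLE scaling Ackr4 did not pass (adjusted p = 0.0501 against 0.0498). All 4 calls were lost without each vector-labelled TAC library, those of Ackr4, Il33 and Ifi27l2a also without PBS sham 2, and those of Ackr4 and Ifi27l2a without PBS sham 3, with adjusted p up to 0.14. The interferon list's median was -0.08, and 0.34 without PBS sham 3. None of 21 immediate early genes (median -0.36) and none of 24 proliferation genes (0.07) passed, and with PBS sham 1 alone the medians were 0.26, a turn in sign, and 0.41. Jun, part of AP-1, was at 116, 113 and 109.7 CPM and 163, 170.3, 136 and 168 CPM without overlap (adjusted p = 0.11).

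Of the 24 tested of 25 adrenergic, angiotensin and natriuretic signalling genes 2 fell and none rose (median -0.16). Over all genes tested 1.63% fell. Adcy6, the main cardiac adenylyl cyclase with Adcy5, fell from 270, 256 and 388 CPM to 193, 159.9, 188 and 176 CPM (log2 difference -0.76 ± 0.16 SE, adjusted p = 0.035; -0.59 with PBS sham 1 alone), without overlap. Adrb3, the beta-3 receptor that is abundant in fat, was at 0.274, 8.64 and 4.79 CPM against 2 counts in all 4 vector-labelled TAC libraries, a ratio of 169 (counting interval 46.8 to 1400), and moved with the adipocyte markers. That ratio uses the mean of the PBS sham libraries. The fitted log2 difference of Adrb3 was -7.08, and -3.05 with PBS sham 1 alone. Both calls were lost without each vector-labelled TAC library (adjusted p up to 0.11). Corin, the protease that activates the natriuretic peptides, was at 145, 193 and 137 CPM and 141, 111, 164 and 138 CPM.

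Other comparisons of the cohort share these libraries, and their values are set side by side. PBS TAC against PBS sham shares the 3 controls and called 5 genes (0.0318%): Ccn5 and Ackr4 rose, and Spon2, Nrgn and Arntl fell. Vector-labelled TAC against PBS TAC called 6 (0.0381%): Arntl and Spon2 rose, and Per2, Ciart, Fam107a and Rhobtb1 fell. Without single libraries that count was 2 (without vector-labelled TAC 1 or 3, or PBS TAC 1 or 2), 1 (without PBS TAC 3), 4 (without vector-labelled TAC 2) or 8 (without vector-labelled TAC 4). Vector-labelled sham against PBS sham called 2 (0.0127%), Banp and Ddit3, both lower. Vector-labelled TAC against vector-labelled sham called 1 (0.00635%), Noct, which was lower. In PBS TAC against PBS sham, Acta1 differed by 4.25 (SE 0.95, adjusted p = 0.11), Ankrd1 by 1.96 (SE 0.47, adjusted p = 0.13) and Xirp2 by 1.81 (SE 0.42, adjusted p = 0.12), and none of these passed. Directly between vector and saline under TAC, Acta1 differed by 0.19 (95% interval -1.49 to 1.87), Ankrd1 by -0.05 (-0.95 to 0.86) and Xirp2 by 0.13 (-0.69 to 0.95). No difference in these load genes between vector and saline was detected, and the intervals leave room for one in either direction. Ccn5 was at 40.04, 25.7 and 35.95 CPM in PBS TAC, and its difference between vector and saline under TAC was -0.58 (95% interval -1.07 to -0.08, adjusted p = 1). Ackr4 differed by -0.79 (adjusted p = 0.95), and Rrad by 0.74 (adjusted p = 1). Spon2, a matrix protein of the spondin family, was at 6.69, 8.698 and 6.07 CPM in PBS sham, 8.397, 9.22, 7.57 and 7.54 CPM in vector-labelled TAC and 1.46, 1.902 and 1.27 CPM in PBS TAC. It did not pass in overload with the vector against healthy heart (log2 difference 0.20 ± 0.25 SE, adjusted p = 0.61) and rose by 2.40 (SE 0.29, adjusted p = 0.0072) between vector and saline under TAC. Fam107a was at 5.56, 9.74 and 7.52 CPM in PBS TAC and 4.99, 2.698, 3.57 and 2.36 CPM in vector-labelled sham, and differed between vector and saline under TAC by -1.86 (SE 0.26, adjusted p = 0.018).

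**Figure D4:**
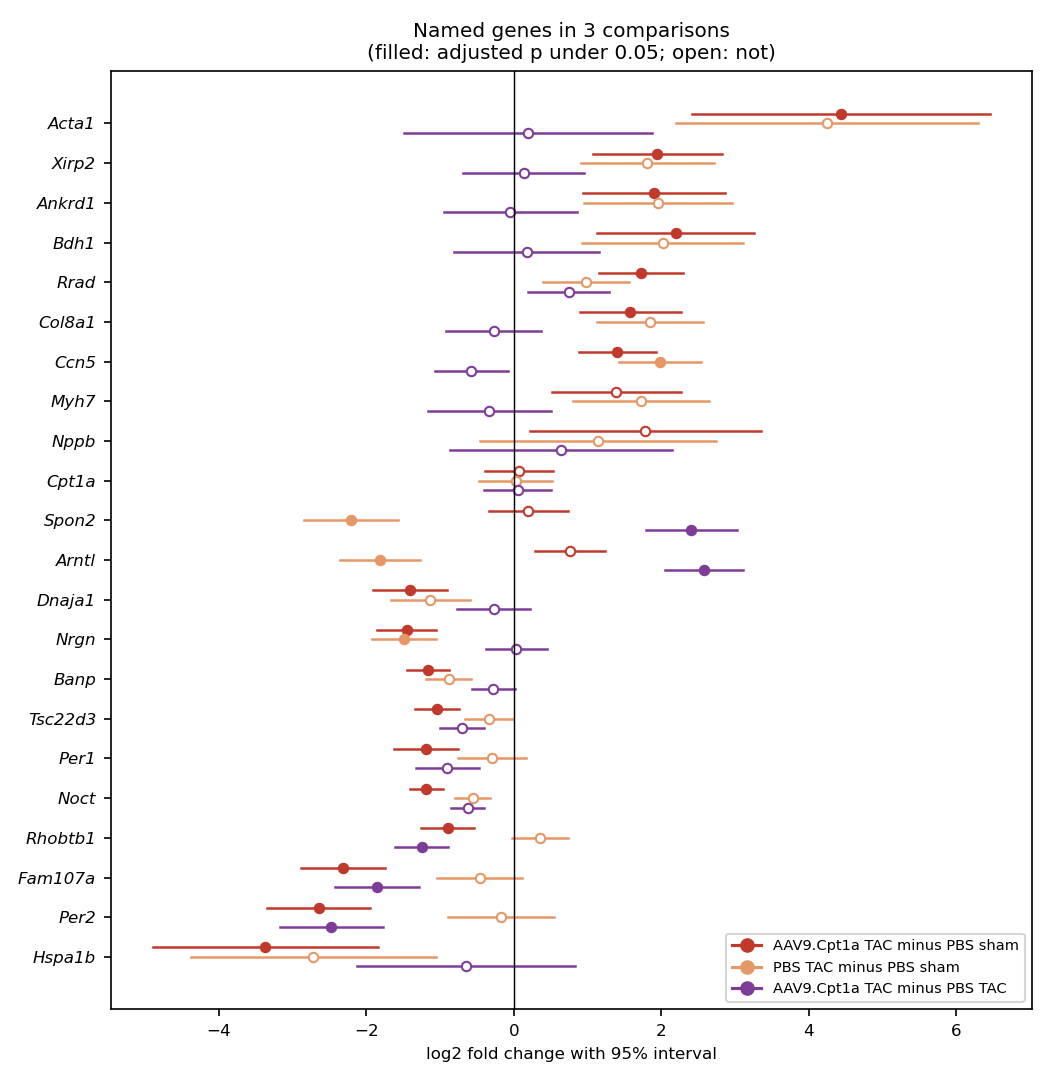
log2 fold change (point) with its 95% interval (line) of 22 named genes in vector-labelled TAC minus PBS sham, PBS TAC minus PBS sham, and vector-labelled TAC minus PBS TAC, which share libraries. Filled points passed an adjusted p of 0.05. Acta1, Xirp2 and Ankrd1 lie to the right in both comparisons with PBS sham and near 0 between the overloaded groups, while Arntl and Spon2 lie apart between the overloaded groups.

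The dependence on the controls differed by gene. All 64 called genes named here kept their direction with PBS sham 1 as the only control, which their choice on libraries that include it favours. The 20 higher genes all kept at least 50% of their log2 difference, and so did 30 of the 44 lower genes. The 14 others were Chst4, Cybrd1, Phgdh, Il33, Ifi27l2a, Per1, Adrb3, Cnn1, Wt1, Meg3, Rian, Scd1, Fasn and Gpc3. With the adipocyte markers as a covariate in the fit 0 genes passed (476 at an unadjusted p under 0.05), and 319 of the 332 kept their sign.

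**Figure D5:**
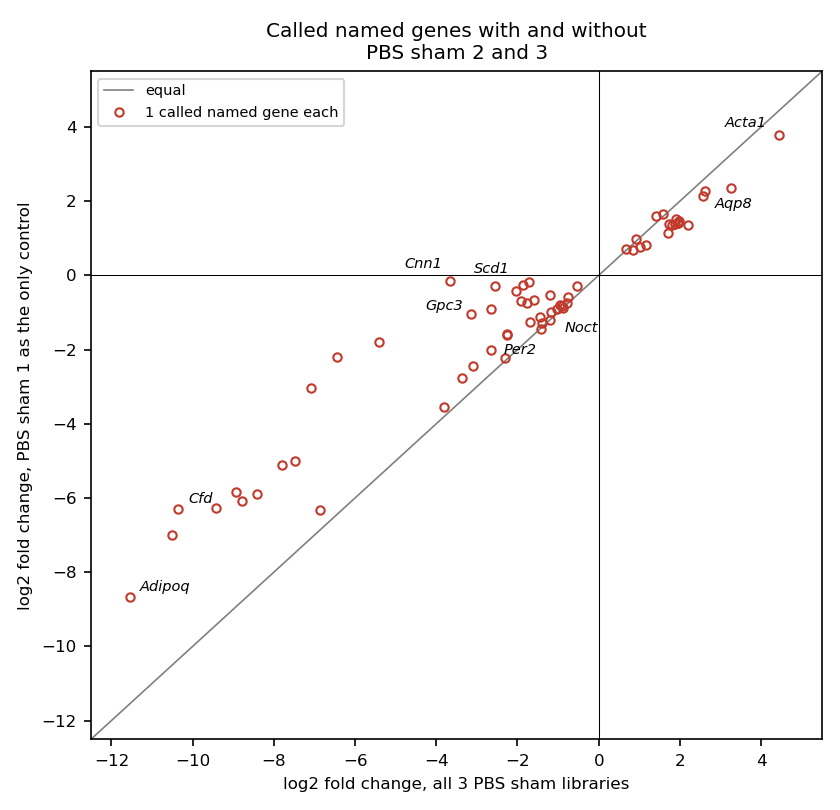
log2 fold change of 64 called named genes in vector-labelled TAC against all 3 PBS sham libraries (x axis) and against PBS sham 1 alone (y axis), 1 circle per gene, with the line of equal values. Higher genes lie close to the line; adipocyte genes and Scd1, Cnn1 and Gpc3 lie above it, nearer to 0 on the y axis.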

How the data were processed

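RNA was taken from flash-frozen mouse hearts (RNA integrity number over 7), and libraries were made with a directional poly(A) kit and sequenced as paired reads on a NovaSeq, per the labels. The authors deposited raw counts per gene in a single table of 30 libraries and 55487 gene identifiers. HISAT2 2.1.0, featureCounts, Subread 1.5.1 and build GRCm38 are named in the submitters' processing notes, without roles. The strand setting of the counting and the annotation release are not given in the sources used here. Reads of overlapping genes on opposite strands therefore cannot be told apart, and 42 of 154 named genes overlap one in GENCODE M21. Among these, Adrb3, Hspa1a, Myh7, Dnaja1, Adcy6 and Ackr4 share 8.9% to 24.9% of their exonic bases with other genes, so their reads are uncertain too. Symbols were matched for 55141 identifiers, and the 346 others held 0.0192% of the counts.

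The 14 libraries of the AAV9 cohort were fitted together with edgeR 4.0.16 (R 4.3.3): TMM scaling, its filter on low counts by group, and the quasi-likelihood test, two-sided, with Benjamini-Hochberg adjustment over 15745 genes and a threshold of 0.05. All adjusted p-values in the text come from it unless another tool is named. CPM, log2 differences (vector-labelled TAC minus PBS sham), standard errors and list medians were computed from the counts. Intervals are at 95%; counting intervals and the floor of 3 counts cover counting error only. Alternatives used DESeq2 1.42.0, limma 3.58.1 (voom), other filters and scalings, covariates, a replicate block and each library left out.

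Named genes are the 12 largest rises and 12 largest falls among genes passing the threshold whose libraries do not overlap and whose higher group averages 5 CPM or more, Cpt1a, up to 4 passing members per direction of each of 36 lists with their 2 most abundant members and the member of smallest p, and 6 genes known from comparisons that share libraries. A gene that the rule names is not reported here. Genes said to be chosen after their values were seen lie outside that rule. The members and lists were chosen with earlier results of these data known. The test was tested on simulated data for this comparison (15549 genes): 55 of 100 genes changed 2-fold and 88 of 99 changed 4-fold were recovered, and 8 of 151 calls were false. The simulated libraries had no shifts in tissue content such as those between the PBS sham libraries. These shares may therefore not hold for the real libraries. Within groups, no pair of libraries differed by as little as sampling noise. Promoters (250 bases) come from RefSeq on GRCm38, which had an entry for 13 of the 14 genes searched.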

Additional observations from a re-analysis of the deposited data

Results flagged for a closer look

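In 126 sets of 4 libraries tested, 9 held a library far from the others by Dixon's test at the 95% level, at which chance flags about 1 in 20 sets. In vector-labelled TAC 3, Myl4 and Bmp10, both atrial genes, were at 349.6 and 278 CPM, where the nearest other library held 1.60 and 0.115 CPM. The same library held the lowest Hspa1a, 3.16 CPM against 17.0 CPM in the nearest. In vector-labelled TAC 4, Nppa, which encodes atrial natriuretic peptide, was at 213 CPM against 883 CPM in the nearest. In vector-labelled TAC 2, the ketone enzyme Bdh1 was at 372 CPM against 209.5 CPM. Vector-labelled TAC 1 held 4 such values: the beta-globin Hbb-bs at 505 CPM against 294 CPM, the mesothelial gene Wt1 at 9.05 CPM against 5.19 CPM, Banp at 12.3 CPM against 9.15 CPM, and the immediate early gene Nr4a1 at 94.0 CPM against 112 CPM.

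The difference between vector-labelled and PBS libraries was not the same under overload and sham surgery for the clock activator Arntl (edgeR's interaction term, log2 2.54). Of all genes tested it was the 1 gene whose interaction passed, while 1094 were at an unadjusted p under 0.05. Arntl was lowest in the PBS TAC libraries. The labels give no hour of collection, so the hour and the group cannot be told apart here either.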

How the results depend on the processing

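The 332 genes called between vector-labelled TAC and PBS sham became 1360 with DESeq2, 1010 with limma voom, 853 without a filter on low counts, 181 at a mean of at least 5 CPM, 1250 with all 30 libraries in a single fit and 0 with only the compared libraries in it (edgeR, 2149 at an unadjusted p under 0.05). They became 1 with Myl7 and 18 with Myl7, Sln and Bmp10 as covariates. Leaving out a library gave 17 to 4242. Added after seeing the data, the adipocyte marker covariate gave 0 (476 at an unadjusted p under 0.05), PBS sham 1 as the only control 1, and the libraries with Myl7 of at least 10 CPM 0 (358). RLE scaling gave 325. The cause of these shifts was not tested. The sign of the 332 genes, which were chosen on the same libraries, was kept for every one tested except with the adipocyte marker covariate (319 of 332) and with PBS sham 1 as the only control (328). The 6 genes called between vector-labelled TAC and PBS TAC became 35 with DESeq2, 97 with limma voom, 14 without the filter, 38 with only the compared libraries and 0 with all 30 (edgeR, 400 at an unadjusted p under 0.05), and 1 to 8 without each library.

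Same-numbered libraries deviated little together (r = 0.077, -0.0665 and 0.0596 across genes), and differently numbered ones gave r from -0.245 to 0.194. With so few libraries these values cannot decide whether the numbers pair samples. A replicate block gave 7 genes in each of the 2 comparisons. Of 3057 pairs of a named gene and an alternative, 2202 stayed the same, 657 lost the call and 94 gained it. Staying the same meant the same side of the threshold and the same direction. For genes uncalled in both fits it also allowed a change of sign within the standard error. In 100 pairs an uncalled gene changed sign by more than that, and 4 pairs of a called gene reversed. The reversals came with the adipocyte marker covariate: log2 differences of 0.37 for Cyp2e1, 1.84 for Adrb3, 0.20 for Scd1 and 0.054 for Fasn, at adjusted p of 1. At 16299695 to 22070373 counts a library, levels of a few counts, as in the adipocyte markers of vector-labelled TAC, cannot be told apart.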
